A study of Mus musculus with 6 samples.

Results

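The mammalian mitochondrial ribosome translates the handful of proteins encoded by mitochondrial DNA, all of them core subunits of the oxidative phosphorylation complexes. Its ribosomal RNAs come from the mitochondrial genome. Its proteins are encoded in the nucleus, made on cytosolic ribosomes and imported, so their messenger RNAs are among those that a purification of cytosolic ribosomes can capture. Some of the proteins have counterparts in the bacterial ribosome and others were gained in the mitochondrial lineage.

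The genes described here were the rows of the deposited expression table whose symbol was Mrpl or Mrps, a number and at most 1 letter. The rule found 76 of the 23827 listed genes, 47 named for the large subunit (Mrpl) and 29 for the small subunit (Mrps). Values were RPKM, read numbers scaled for transcript length and library size, from polyadenylated RNA of brain endothelial cells at embryonic day E14.5 of the mouse. The RNA was isolated by translating ribosome affinity purification (TRAP). In this method a tag on the cytosolic ribosomes of the cells of interest is used to recover them with their bound messenger RNA. One group was 3 biological replicates whose labelled genetic modification is R26 Axin1 IresLacZ overexpression, called Axin1 below. Axin1 scaffolds the beta-catenin destruction complex and so restrains canonical Wnt signalling. The other group was 3 biological replicates labelled Wt. Both groups were of the strain C57BL/6 x 129/Sv, and in both the mothers had received tamoxifen at E12.5. The labels do not give the Cre driver, the line that carries the ribosome tag, or whether embryos were pooled. A value is thus the relative level of a messenger RNA in the purified material, not an absolute amount. Fewer cells of a type cannot be told apart from less RNA per cell.

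The overexpressed gene followed the labels, with 37.8, 38.1 and 37.4 RPKM of Axin1 in Axin1 replicates 1 to 3, against 13.6, 14.4 and 15.1 RPKM in Wt replicates 1 to 3 (log2 fold change 1.34, SE 0.062, adjusted p = 2.25e-05 in limma). Recovered read totals were 21077136 to 37039869 in the Axin1 libraries, Axin1 replicate 3 being the shallowest, and 53523986 to 62507589 in the Wt libraries. The column names carry the tag RS216 for every Axin1 library and RS148 for every Wt library. The sources used here do not say what the tags mean, and if they mark sequencing runs, run and genotype cannot be told apart. Summed pan-endothelial markers ranged from 2161 to 2422 RPKM in Axin1 libraries and from 2236 to 2313 RPKM in Wt libraries, with all 10 listed genes detected, 1 of them called higher and 2 lower. Gene by gene, 3 of the 10 had a log2 fold change above 0, and the median was -0.14. All 3 Axin1 libraries lay below all 3 Wt libraries for 4 of them and above for 1, against 15.9% and 28.0% of all tested genes. Markers of some other cells differed between the groups. Summed neural progenitor and neuron markers ranged from 1206 to 1269 RPKM in Axin1 libraries, against 926 to 1156 RPKM in Wt libraries, and 8 of 12 were called higher. Summed erythroid markers ranged from 319 to 640 RPKM in Axin1 libraries, against 95.3 to 122 RPKM in Wt libraries. All 4 tested erythroid genes were called higher, while the adult globin genes Hba-a1 and Hbb-b1 were listed at 0 in every library. Of 8 pericyte and smooth muscle markers 3 were called lower, of 7 meningeal fibroblast markers 1 was called lower, and of 4 tested microglia and macrophage markers 1 was called higher. Of all tested genes 14.4% were called higher and 8.37% lower, and the fibroblast and microglia counts say little beside those shares. The part of these differences in the results below was not tested.

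Transcription factors that act on many nuclear genes for mitochondrial proteins bind short promoter motifs. The promoter windows of 4 genes described below are shown because they carry 3 such motifs in the arrangements found among the members. The sequences are RefSeq's on GRCm38.p6, 250 bases before to 50 bases after the annotated start, read 5' to 3' on the strand of the gene. Capitals mark matches on either strand to the motifs. The first is CCGGAA, the core bound by ETS factors, among them the GABP complex. The second is the motif of the nuclear respiratory factor NRF1. The third is AANATGGC, bound by YY1. Mrpl18 holds the ETS core on both strands and a YY1 motif just after its start. Mrpl45 holds 3 NRF1 motifs. Mrps11 lies head to head with Mrpl46 on chromosome 7, so this window holds the start region of both genes, and it has 1 YY1 motif. Mrps27, the only member called lower, has 2 ETS cores and 2 YY1 motifs.
Mrpl18 (chr17:12916042-12916341, minus strand): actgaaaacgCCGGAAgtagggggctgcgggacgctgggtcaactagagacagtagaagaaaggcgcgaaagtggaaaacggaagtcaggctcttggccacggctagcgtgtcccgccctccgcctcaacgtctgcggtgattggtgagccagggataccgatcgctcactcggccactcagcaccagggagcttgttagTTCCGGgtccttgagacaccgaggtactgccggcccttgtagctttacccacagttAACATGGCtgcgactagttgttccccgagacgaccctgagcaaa
Mrpl45 (chr11:97315466-97315765, plus strand): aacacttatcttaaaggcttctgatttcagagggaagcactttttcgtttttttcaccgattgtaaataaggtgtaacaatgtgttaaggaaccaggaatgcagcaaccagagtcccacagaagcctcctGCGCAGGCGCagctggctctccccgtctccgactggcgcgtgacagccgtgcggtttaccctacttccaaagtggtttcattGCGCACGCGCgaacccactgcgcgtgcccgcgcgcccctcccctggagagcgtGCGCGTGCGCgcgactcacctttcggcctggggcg
Mrps11 (chr7:78782881-78783180, plus strand): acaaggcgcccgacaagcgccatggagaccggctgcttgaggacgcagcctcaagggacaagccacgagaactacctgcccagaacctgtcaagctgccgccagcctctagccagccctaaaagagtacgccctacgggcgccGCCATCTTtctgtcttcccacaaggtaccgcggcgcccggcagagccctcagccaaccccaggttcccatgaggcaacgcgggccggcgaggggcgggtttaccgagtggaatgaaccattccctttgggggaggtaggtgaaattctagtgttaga
Mrps27 (chr13:99344536-99344835, plus strand): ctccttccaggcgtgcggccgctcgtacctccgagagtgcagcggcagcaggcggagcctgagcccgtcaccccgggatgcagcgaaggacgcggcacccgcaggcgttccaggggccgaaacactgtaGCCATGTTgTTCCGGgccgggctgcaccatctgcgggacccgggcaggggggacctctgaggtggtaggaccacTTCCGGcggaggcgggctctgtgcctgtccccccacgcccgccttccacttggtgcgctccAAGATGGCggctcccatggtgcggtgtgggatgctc

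RefSeq windows were found for 67 of the 76 members, 73 windows in all because 3 members have several annotated starts. The ETS core was in 54.3% of 46 large subunit windows and in 59.3% of 27 small subunit windows, against 26.2% of 11928 windows of tested genes and 14.9% of all 32851 windows. The NRF1 motif was in 19.6% of large and 11.1% of small subunit windows, against 9.63% for tested genes and 4.60% for all. The YY1 motif was in 28.3% of large and 25.9% of small subunit windows, against 8.14% for tested genes and 6.05% for all. At least 1 of the 3 motifs was in 78.1% of member windows, against 37.4% of windows of tested genes and 22.5% of all windows. An ETS match and a YY1 match can share 2 letters and then count for both. The member windows had a median GC content of 58.3%, and those of tested genes 61.3%. Of the 23 YY1 matches in member windows, 15 lay on the strand of the gene after the start (65.2%), as in Mrpl18, against 33.3% of 1052 matches in windows of tested genes. The YY1 motif contains ATG, the letters of a start codon. Whether these matches lie at start codons was not tested, so the YY1 shares may count protein starts as well as promoter sites. The ETS core was in 42.1% of the 19 windows of members called higher and in 61.5% of the 52 windows of members not called. At least 1 of the 3 motifs was in 78.9% of the windows of members called higher and in 78.8% of those not called. The windows of Mrps6 and Mrps5, both called higher, hold none of the 3 motifs. No test was made on these shares. A match says only that the letters are there.

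**Figure D1:**
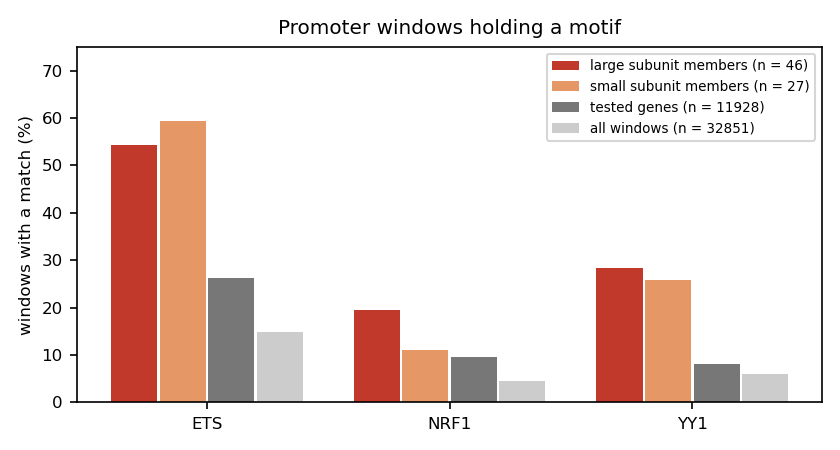
Share of promoter windows (percent, vertical axis) that hold the ETS, NRF1 or YY1 motif, for large subunit members (red, 46 windows), small subunit members (orange, 27 windows), all tested genes (dark grey, 11928 windows) and all windows (light grey, 32851 windows). For the ETS and YY1 motifs the bars of both subunits stand above those of the tested genes, 54.3% and 59.3% against 26.2% for ETS and 28.3% and 25.9% against 8.14% for YY1.

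Messenger RNAs of both subunits were present in the purified material at similar levels. In Axin1 libraries the 46 tested large subunit genes had a median of 33.2 RPKM, with 39 of them between 10 and 100 RPKM, and the 29 small subunit genes had a median of 30.7 RPKM. In Wt libraries the medians were 32.0 and 28.8 RPKM. Individual members spanned a wide range, from 2.86 RPKM for Mrps36 to 110 RPKM for Mrpl20 in Axin1 libraries and from 2.47 RPKM for Mrps36 to 94.9 RPKM for Mrps21 in Wt libraries. By the mean over both groups, Mrpl20, Mrpl52 and Mrpl33 headed the large subunit and Mrps21, Mrps6 and Mrps16 the small. Mrpl20, the counterpart of bL20, had 107, 104 and 118 RPKM in Axin1 replicates 1 to 3, against 88.2, 97.9 and 98.2 RPKM in Wt replicates 1 to 3, and although the groups did not overlap it was not called (adjusted p = 0.0723 in limma). Its ranges overlapped those of Mrpl52, the next in order, in Axin1. By the same mean the low end held Mrpl19, Mrpl1 and Mrpl35 in the large subunit and Mrps36, Mrps10 and Mrps33 in the small subunit, at 2.86 to 9.18 RPKM in Axin1 libraries and 2.47 to 9.40 RPKM in Wt libraries. In Wt libraries Mrpl48, at 9.14 RPKM, lay below Mrpl1. The order of levels over the 75 tested members was nearly the same in both groups (Spearman's rho 0.979 across genes, which are not independent replicates), and the largest shift was 16 ranks, for Mrps34. Within a group the members varied little between libraries, with a median coefficient of variation of 5.06% in Axin1 and 4.50% in Wt.

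Mrpl23 was the only member under the filter of a mean of 1 RPKM and was not tested. It had 0.519, 0.464 and 0.488 RPKM in Axin1 replicates 1 to 3, against 0.277, 0.355 and 0.359 RPKM in Wt replicates 1 to 3. The reference annotates a pseudogene copy of Mrpl23, of Mrpl48 and of Mrps36, so reads of these genes may have been shared with a copy. The members Mrpl1, Mrpl15, Mrpl48, Mrps2, Mrps10, Mrps33 and Mrps36, 7 in all, are listed with several transcripts.

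More mitochondrial ribosomal protein genes were higher than lower in the Axin1 libraries, by small amounts. Of 75 tested members 22 were called higher, at a Benjamini-Hochberg adjusted p under 0.05 in limma over all 12493 tested genes, which is 29.3% of them against 14.4% of all tested genes. Mrps27 alone was called lower, against 8.37% of all tested genes. In the large subunit 16 of 46 were called higher and 0 lower, with a median log2 fold change of 0.16. At an unadjusted p under 0.05 in limma, 24 large subunit genes were higher and 0 lower, and 11 small subunit genes higher and 1 lower, against 24.8% of all tested genes higher and 14.1% lower. Voom on recovered reads called 16 large subunit genes higher and 0 lower, and 6 small subunit genes higher and 1 lower, against 16.3% and 8.21% of all tested genes. In the small subunit 6 of 29 were called higher and 1 lower, with a median of 0.11, and over all tested genes the median was 0.042. The fold change was above 0 for 42 of 46 large and 22 of 29 small subunit genes, against 58.8% of all tested genes. All 3 Axin1 libraries lay above all 3 Wt libraries for 29 large and 14 small subunit genes, against 28.0% of all tested genes, and for 0 members did all 3 lie below, against 15.9%. The groups thus did not overlap in 43 of 75 members, against 43.9% of all tested genes. Among the 6974 genes within the middle 90% of member levels, 16.3% were called higher. The fold changes of members called higher ran from 0.18 to 0.40 on the log2(RPKM + 1) scale.

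**Figure D2:**
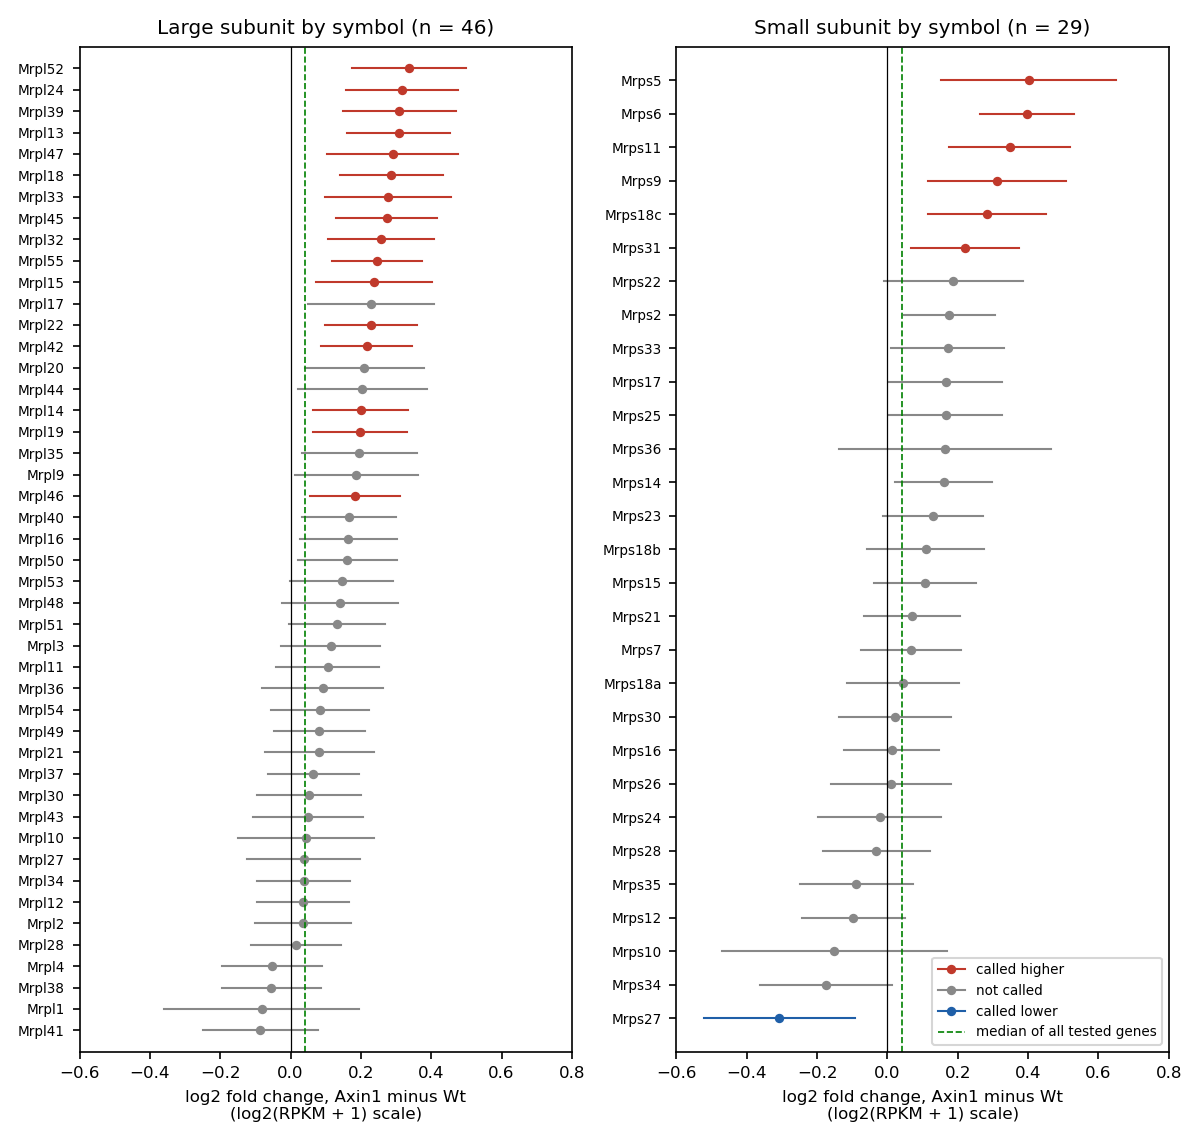
Log2 fold change, Axin1 minus Wt, on the log2(RPKM + 1) scale (horizontal axis) with its 95% interval from limma for each of the 46 tested large subunit genes (left) and 29 small subunit genes (right), 3 libraries a group. Red marks the 22 members called higher, blue Mrps27, called lower, and the dashed line the median of all tested genes, 0.042. Mrpl52 at 0.34 leads the large subunit and Mrps5 at 0.40 the small.

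The result rested on particular libraries and on the processing. Axin1 replicate 3, the shallowest library, had the highest value of all 6 libraries for 48 of 75 members, while Wt replicates 2 and 3 had the lowest for 25 and 26. These counts were not made over all tested genes. Without Axin1 replicate 1, 2 or 3 in turn, 13, 2 and 2 of the 23 calls were kept, and without Wt replicate 1, 2 or 3, 12, 17 and 9 were. The 2 kept without Axin1 replicate 2, and also without Axin1 replicate 3, were Mrpl52 and Mrps6. Each other one of the 23 member calls was lost on leaving out either of these libraries. Calls were lost over the whole table too. From 1800 higher and 1046 lower, they fell to 589 and 465 without Axin1 replicate 2. Without Axin1 replicate 3 they fell to 801 and 601. With libraries scaled by the median of ratios, 11 members were called higher and 1 lower, against 10.4% and 10.7% of all tested genes, and 12 of the 23 calls were kept. A correction for GC content and transcript length, described further on, kept 6. Mrps6 was the only member called under all 16 alternatives run.

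Summed over the large subunit, the 47 genes came to 1856, 1910 and 1983 RPKM in Axin1 replicates 1 to 3, against 1733, 1713 and 1714 RPKM in Wt replicates 1 to 3. The 3 Axin1 sums all lay above the 3 Wt sums, by 11.4% on average. Summed over the small subunit, the 29 genes came to 919, 937 and 978 RPKM in Axin1 replicates 1 to 3, against 899, 883 and 865 RPKM in Wt replicates 1 to 3, which again did not overlap and differed by 7.05% on average. The ratio of large to small subunit sums was 2.02 to 2.04 in Axin1 libraries and 1.93 to 1.98 in Wt libraries. The sum over all tested genes was 3.53% higher in Axin1 libraries.

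**Figure D3:**
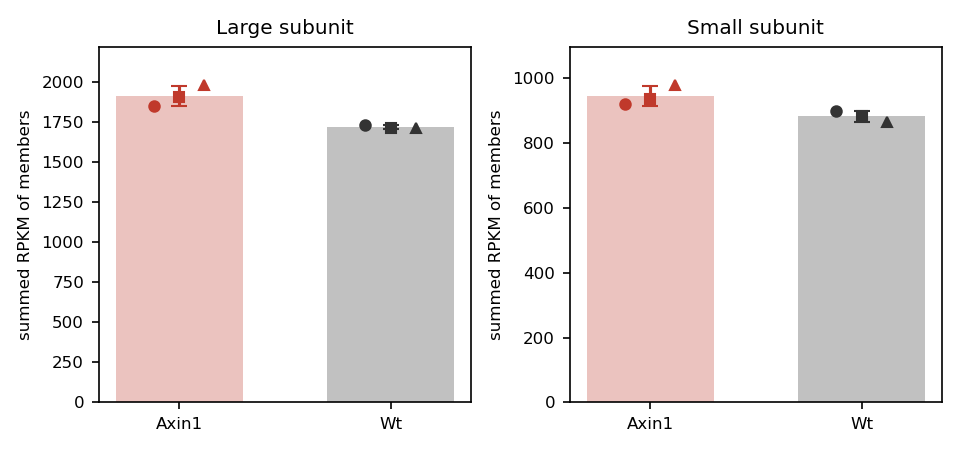
Summed RPKM (vertical axis, from 0) of the 47 large subunit genes (left) and the 29 small subunit genes (right) in each library, Axin1 in red and Wt in grey. Bars are means, error bars SD and points the 3 libraries of a group. Every Axin1 library stands above every Wt library in both panels, with means of 1916 and 1720 RPKM for the large subunit and 945 and 882 RPKM for the small.

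The structural groups below were drawn up with the values known, hold few genes each and are given in order of position, as descriptions. Around the exit of the peptide tunnel 4 of 5 tested large subunit genes were called higher, beside 16 of 46 in the whole subunit and 14.4% of all tested genes. All 5 had Axin1 libraries above Wt libraries, with a median log2 fold change of 0.27, and after the GC and length correction 1 of the 5, Mrpl45, was called. Mrpl24, the counterpart of bacterial uL24, had 51.5, 56.4 and 56.9 RPKM in Axin1 replicates 1 to 3, against 45.4, 41.2 and 45.2 RPKM in Wt replicates 1 to 3. The groups did not overlap (log2 fold change 0.32, SE 0.070, adjusted p = 0.0159). Mrpl45, which anchors the ribosome at the inner membrane near the tunnel exit, averaged 15.2 ± 0.82 RPKM in Axin1 and 12.4 ± 0.31 RPKM in Wt (SD, n = 3 each), with every Axin1 value above every Wt value (log2 fold change 0.27, SE 0.063, adjusted p = 0.0184 in limma). Mrpl47, the counterpart of uL29, had 13.5, 16.7 and 14.9 RPKM in Axin1 replicates 1 to 3, against 11.7, 12.7 and 11.8 RPKM in Wt replicates 1 to 3 (adjusted p = 0.0367). Axin1 replicate 1 came close to Wt replicate 2 but the groups did not overlap. Mrpl22, the counterpart of uL22, had 12.2, 13.0 and 12.3 RPKM in Axin1 replicates 1 to 3, against 10.3, 10.7 and 10.6 RPKM in Wt replicates 1 to 3, again with no overlap (adjusted p = 0.0248). Mrpl17 was not called, at a log2 fold change of 0.23 and an adjusted p of 0.0665.

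The central protuberance, where the mammalian mitochondrial ribosome carries a transfer RNA in the place of the bacterial 5S RNA, had 4 of 7 genes called higher, beside 14.4% of all tested genes, and 0 of 7 after the GC and length correction, against 7.42%. Mrpl52, a protein with no bacterial counterpart, had 107, 102 and 118 RPKM in Axin1 replicates 1 to 3, against 85.9, 83.6 and 88.2 RPKM in Wt replicates 1 to 3. The lowest Axin1 library was well above the highest Wt library (log2 fold change 0.34, SE 0.071, adjusted p = 0.0135). Mrpl18, whose bacterial counterpart binds 5S RNA and whose promoter window is shown above, had 47.6, 50.8 and 53.1 RPKM in Axin1 replicates 1 to 3, against 42.2, 41.5 and 39.8 RPKM in Wt replicates 1 to 3. The groups were apart here too (log2 fold change 0.29, SE 0.065, adjusted p = 0.0172). Mrpl55, the counterpart of bL31, and the mitochondria-specific Mrpl46 completed the 4, at log2 fold changes of 0.24 and 0.18 and adjusted p of 0.018 and 0.0478. Mrpl40 had a log2 fold change of 0.17, Mrpl48 of 0.14 and Mrpl38 of -0.055, with adjusted p of 0.0717, 0.189 and 0.55.

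Other large subunit genes called higher lie elsewhere in the particle. Mrpl13, whose bacterial counterpart joins early in assembly, had 94.8, 104 and 105 RPKM in Axin1 replicates 1 to 3, against 82.9, 78.6 and 82.8 RPKM in Wt replicates 1 to 3, with no overlap (log2 fold change 0.31, SE 0.064, adjusted p = 0.0134). Mrpl39, a mitochondria-specific protein that resembles a threonyl-tRNA synthetase, had 26.5, 28.8 and 30.0 RPKM in Axin1 replicates 1 to 3, against 23.7, 21.5 and 23.1 RPKM in Wt replicates 1 to 3, again with no overlap (log2 fold change 0.31, SE 0.070, adjusted p = 0.0177). Mrpl33 averaged 100.3 ± 8.0 RPKM in Axin1 and 82.6 ± 5.1 RPKM in Wt (SD, n = 3 each, adjusted p = 0.0372 in limma). Mrpl32, which is matured by the m-AAA protease before it enters the ribosome, averaged 30.4 ± 0.2 RPKM in Axin1 and 25.3 ± 1.8 RPKM in Wt (SD, n = 3 each, adjusted p = 0.0273 in limma). The remaining 4, Mrpl15, Mrpl42, Mrpl14 and Mrpl19, had log2 fold changes of 0.20 to 0.24. Mrpl14, which is held by the assembly factor Malsu1 until the subunits join, was at 0.20 with an adjusted p of 0.0426.

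The 4 genes of the peptidyl transferase region and the 2 stalk genes had no call, against 14.4% of all tested genes called higher, and so few genes say little beside that share. Of Mrpl2, Mrpl3, Mrpl16 and Mrpl27, of the peptidyl transferase region, 0 were called in limma or in voom, and 1, Mrpl16, was higher at an unadjusted p under 0.05. Their log2 fold changes ran from 0.035 to 0.16. Mrpl12, the stalk protein that recruits translation factors, had 82.4, 80.9 and 79.2 RPKM in Axin1 replicates 1 to 3, against 78.5, 77.0 and 81.2 RPKM in Wt replicates 1 to 3. These ranges overlapped, and the log2 fold change was 0.035 with a 95% interval from -0.095 to 0.17 (adjusted p = 0.682). Mrpl10, which holds Mrpl12 in the stalk, was at 0.044 with an interval from -0.15 to 0.24 (adjusted p = 0.735). Both stalk genes were just below 0 after rescaling by the median of ratios, at -0.0094 for Mrpl12 and -0.00056 for Mrpl10. The only large subunit genes with fold changes below 0 were Mrpl4, Mrpl38, Mrpl1 and Mrpl41, at -0.054 to -0.086, none of them called. Mrpl1 was spread widely in Axin1, at 9.70, 10.1 and 6.96 RPKM in replicates 1 to 3, against 9.51, 8.79 and 9.92 RPKM in Wt replicates 1 to 3, and its sign turned without Axin1 replicate 3 (0.069) and in voom on recovered reads (0.13).

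In the small subunit, Mrps6 differed most clearly. Mrps6, the counterpart of bacterial bS6 on the platform that receives messenger RNA near the exit site, had 74.3, 76.7 and 80.4 RPKM in Axin1 replicates 1 to 3, against 58.5, 57.8 and 58.7 RPKM in Wt replicates 1 to 3. The groups were far apart for their spread (log2 fold change 0.40, SE 0.059, adjusted p = 0.00367). The reference places Slc5a3 on the same strand over part of Mrps6, and Slc5a3 had 2.46 RPKM in Axin1 and 2.90 RPKM in Wt. Mrps11, also on the platform, had 46.5, 46.0 and 49.1 RPKM in Axin1 replicates 1 to 3, against 36.6, 40.4 and 33.8 RPKM in Wt replicates 1 to 3. Its Wt libraries were the more spread, and none reached the Axin1 libraries (log2 fold change 0.35, SE 0.076, adjusted p = 0.0155). Mrps18c, the third platform gene called higher, averaged 46.5 ± 2.4 RPKM in Axin1 and 38.1 ± 2.8 RPKM in Wt (SD, n = 3 each, adjusted p = 0.0281 in limma). The other platform genes, Mrps15 and Mrps21, had log2 fold changes of 0.11 and 0.070 and were not called. So 3 of 5 platform genes were called higher, beside 6 of 29 in the whole subunit and 14.4% of all tested genes. After the GC and length correction 2 of 5 were, against 7.42% of all tested genes.

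Mrps5, at the entry of the messenger RNA channel, had the largest fold change of any member but a noisier one. It had 15.5, 16.2 and 14.1 RPKM in Axin1 replicates 1 to 3, against 12.52, 9.29 and 12.3 RPKM in Wt replicates 1 to 3. The groups did not overlap, and Wt replicate 2 stood below the other Wt libraries (log2 fold change 0.40, SE 0.11, adjusted p = 0.0326). Mrps9, in the head, averaged 25.4 ± 1.2 RPKM in Axin1 and 20.4 ± 2.3 RPKM in Wt (SD, n = 3 each, adjusted p = 0.0337 in limma). Mrps31, with no bacterial counterpart, averaged 14.8 ± 1.0 RPKM in Axin1 and 12.6 ± 0.5 RPKM in Wt (SD, n = 3 each, adjusted p = 0.0483 in limma). Mrps31 lost its call without any 1 of the 6 libraries.

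Mrps27, a pentatricopeptide repeat protein of the small subunit, was the member called lower. It had 18.1, 18.4 and 20.8 RPKM in Axin1 replicates 1 to 3, against 25.7, 20.7 and 25.4 RPKM in Wt replicates 1 to 3. Axin1 replicate 3 and Wt replicate 2 were nearly equal, so the groups overlapped narrowly (log2 fold change -0.31, SE 0.095, adjusted p = 0.0485). The call was lost without any of Axin1 replicates 1, 2 and 3 and without Wt replicate 1 or 3, at both other pseudocounts and with no filter, and it was kept after the GC and length correction (-0.38, adjusted p = 0.0256). The next lowest small subunit genes were Mrps34 at -0.17, Mrps10 at -0.15, Mrps12 at -0.097 and Mrps35 at -0.088, all with overlapping groups and none called. Mrps12, whose bacterial counterpart sits at the decoding site, had 44.6, 40.8 and 41.5 RPKM in Axin1 replicates 1 to 3, against 47.1, 45.2 and 43.6 RPKM in Wt replicates 1 to 3.

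**Figure D4:**
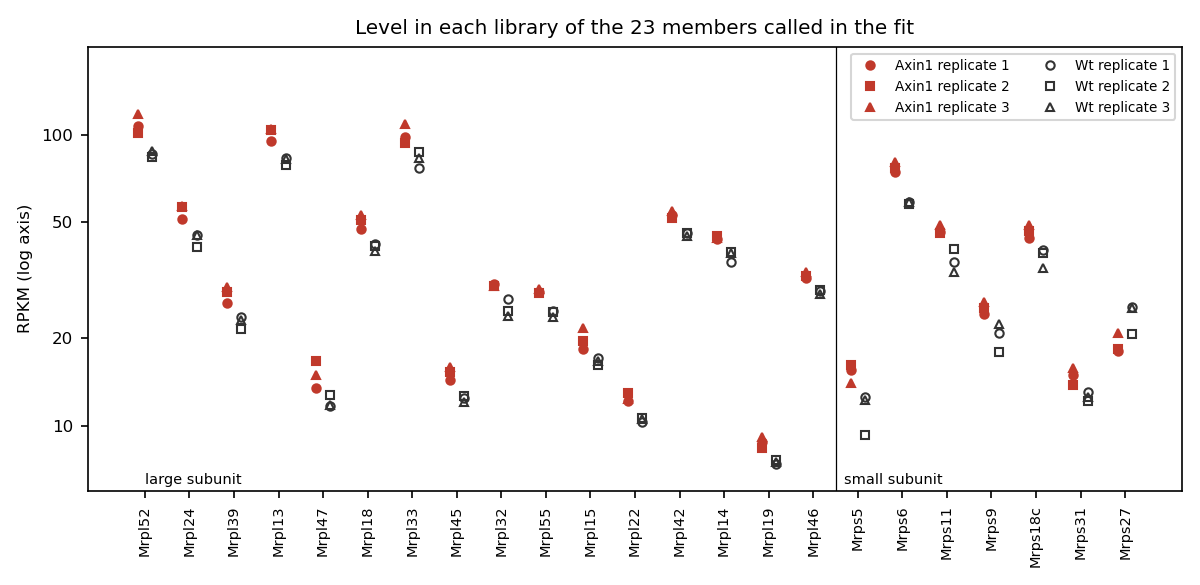
RPKM (vertical log axis) in each library of the 23 members called, large subunit on the left and small subunit on the right, each ordered by fold change. Filled red symbols are the 3 Axin1 libraries and open symbols the 3 Wt libraries, with a symbol shape for each replicate number. The 22 members called higher have all red symbols above all open ones, as in Mrps6 with 74.3 to 80.4 RPKM in Axin1 and 57.8 to 58.7 RPKM in Wt, and only Mrps27 has the lower mean in Axin1, with a narrow overlap.

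The Mrps18 family has 3 related genes among the members. Mrps18c is the paralogue in the place of bacterial bS18, Mrps18b is a second small subunit protein and Mrps18a belongs to the large subunit despite its symbol. Only Mrps18c was called (0.28), while Mrps18b was at 0.11 with an interval from -0.058 to 0.28 and Mrps18a at 0.044 with an interval from -0.11 to 0.20. Differences between these fold changes were not tested. After the GC and length correction Mrps18c was at 0.072, Mrps18b at 0.0055 and Mrps18a at -0.034, and they were not called. Mrps30 also sits in the large subunit, and it was at 0.021 (adjusted p = 0.845). Mrps36 is a part of the 2-oxoglutarate dehydrogenase complex, not of the ribosome, and was at 0.16 with a wide interval, from -0.14 to 0.46 (adjusted p = 0.39). With these 3 genes placed by structure, 16 of 48 large subunit genes were called higher and 0 lower, and 6 of 26 small subunit genes higher and 1 lower.

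Genes called higher came from those with and from those without a bacterial counterpart. In the large subunit 11 of 29 genes with a counterpart and 5 of 17 without one were called higher, with medians of 0.19 and 0.14. In the small subunit 5 of 18 genes with a counterpart were called higher, and of 10 without one 1 was called higher and 1 lower, with medians of 0.11 and 0.075. Of all tested genes 14.4% were called higher and 8.37% lower, with a median of 0.042. After the GC and length correction 1 of 29, 2 of 17, 2 of 18 and 0 of 10 were called higher, against 7.42%. Then 1 of the 17 and 1 of the 10 were called lower, against 7.36%. The classes go by symbol, so Mrps18a and Mrps30 count with the small subunit here. These counts carry no test of their own.

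The fold changes of the members moved with the GC content of their transcripts, and so did those of all genes. Among 21 members with under 48% GC, 9 were called higher with a median log2 fold change of 0.20. Among 32 members at 48 to 53% GC, 9 were called higher and 1 lower with a median of 0.15. Among 22 members above 53% GC, 4 were called higher with a median of 0.054. For the other tested genes the shares called higher in these 3 bands were 22.6%, 13.3% and 7.12%, with medians of 0.11, 0.043 and -0.032. Member transcripts were short, with a median of 1226 bases against 3001 for all tested genes, and 22.5% of the other genes under 1000 bases were called higher. Among the 4178 other genes whose length, GC content and level lay within the middle 90% of the members' values, 17.7% were called higher and 6.08% lower. Across the 75 members Pearson's r of fold change with GC content was -0.322 and with length 0.036, and across all tested genes with both measures they were -0.262 and -0.218. These correlations describe genes of the same 6 libraries.

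When GC content and length were corrected for in each library, 5 of 75 members were called higher and 2 lower, against 7.42% and 7.36% of all tested genes. The median log2 fold change was then 0.041 in the large and 0.0055 in the small subunit, and 0.0063 over all tested genes. The 5 still called higher were Mrpl13, Mrpl39, Mrpl45, Mrps6 and Mrps11, with Mrps6 at 0.29 (adjusted p = 0.0104). Mrps27 remained called lower and was joined by Mrpl41 (-0.22, adjusted p = 0.0296).

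**Figure D5:**
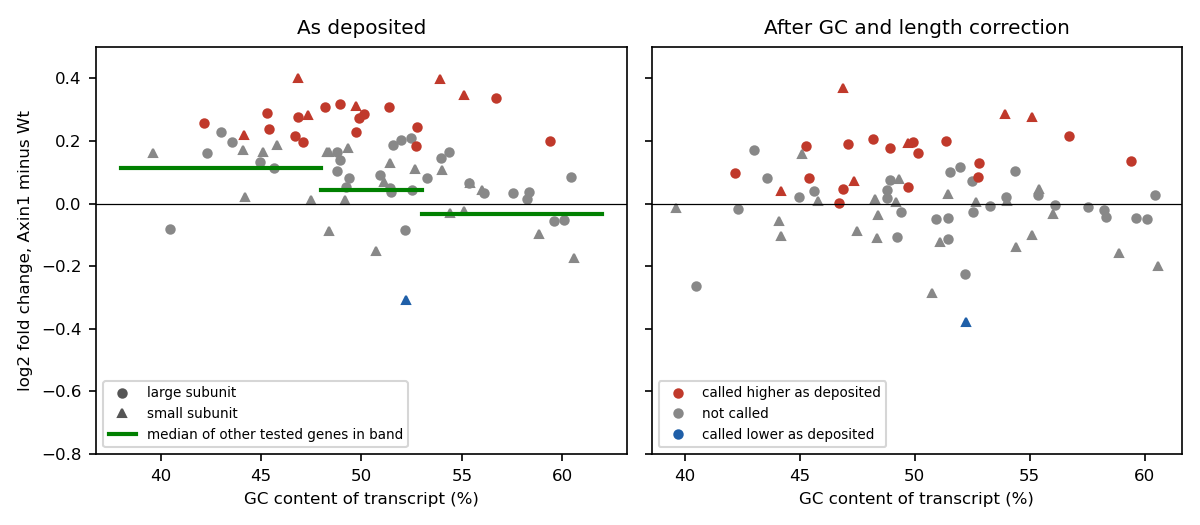
Log2 fold change, Axin1 minus Wt (vertical axis), of each tested member against the GC content of its transcript in percent (horizontal axis), as deposited (left) and corrected for GC content and length (right). Circles are large and triangles small subunit genes, red and blue mark members called higher and lower as deposited, and green lines are medians of the other tested genes in 3 GC bands. The green lines step down from 0.11 to -0.032 as GC content increases, and after the correction the members scatter about medians of 0.041 in the large and 0.0055 in the small subunit.

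In the authors' deposited table, which gives a fold of Wt over Axin1 with an adjusted p-value, 3 of the 76 members passed 0.05, against 12.4% of all genes tested here, and 0 of these were large subunit genes. In the authors' deposited table these were Mrps6 (fold 0.781, adjusted p = 0.0149), Mrps27 (fold 1.29, adjusted p = 0.021) and Mrps11 (fold 0.808, adjusted p = 0.0448). A fold under 1 there means higher in Axin1, so the directions were the same as in limma for these 3.

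Some members share DNA with a neighbour, which bears on how their reads can be read. In the reference annotation 28 of 76 members (36.8%) start within 1000 bases of a protein-coding gene on the opposite strand facing away from them, or overlap its first 300 bases, against 1664 of 11456 tested genes. Mrps11 and Mrpl46 are each other's partner. The other 24 tested partners, none of them members, had a median log2 fold change of 0.039, with 5 called higher and 1 lower, against 14.4% and 8.37% of all tested genes. Mrps11 and Mrpl46, whose starts lie 30 bases apart, were both called higher. So were Mrpl18 with Tcp1, a subunit of the cytosolic chaperonin that had 155 RPKM in Axin1 and 121 RPKM in Wt, and Mrpl13 with Mtbp, which had 10.1 RPKM in Axin1 and 7.97 RPKM in Wt. Other pairs differed. Mrpl49 was not called (0.082), while Fau, which encodes a cytosolic ribosomal protein and was not in the list of that family used below, was called lower at -0.66 (adjusted p = 0.0167), and Mrps27 was called lower while Ptcd2 was at 0.087 (adjusted p = 0.37). Exons of 17 members overlap another gene, and 6 of these members were called, beside 23 of all 75 tested members and 22.8% of all tested genes. These were Mrpl13, Mrpl18, Mrpl19, Mrpl24, Mrpl47 and Mrps6. The labelled library kit does not mark strand, so reads from overlapping genes on opposite strands cannot be told apart.

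Among other genes of mitochondrial gene expression, 0% to 20% of each list were called higher, against 14.4% of all tested genes. Of 7 mitochondrial ribosomal proteins that carry no Mrp symbol, 1 was called higher and all 7 were above 0, with a median log2 fold change of 0.14. The gene called was Ptcd3, a pentatricopeptide repeat protein of the small subunit, with 17.2 ± 1.0 RPKM in Axin1 and 14.47 ± 0.59 RPKM in Wt (SD, n = 3 each, adjusted p = 0.0386 in limma). Of 26 genes for ribosome assembly and rRNA modification, 0 were called higher and 1 lower, the pseudouridine synthase Rpusd3 at -0.30 (adjusted p = 0.0244), with a median of 0.031. At an unadjusted p under 0.05 in limma 2 of the 26 were higher, and voom called 0 either way. Of 15 translation factor genes 3 were called higher, with a median of 0.12. These were Mtif2, the initiation factor, at 0.31, Taco1, an activator of Cox1 translation, at 0.24, and Slirp, which binds mitochondrial messenger RNAs, at 0.24. Of 20 mitochondrial tRNA synthetases 0 were called higher and 1 lower, with a median of -0.042. At an unadjusted p under 0.05 in limma 0 of the 20 were higher and 4 lower, and voom called 0 higher and 1 lower. Lars2, the leucyl-tRNA synthetase, had 79.0, 133 and 124 RPKM in Axin1 replicates 1 to 3, against 349, 263 and 342 RPKM in Wt replicates 1 to 3, far apart though widely spread (log2 fold change -1.52, SE 0.19, adjusted p = 0.00186).

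Genes of mitochondrial DNA maintenance and transcription, 15 in all, gave 1 call each way, Ssbp1, the single-stranded DNA binding protein, at 0.29 and the DNA polymerase gene Polg at -0.27. Of 25 genes of mitochondrial protein import 3 were called higher, Timm9 (0.38), Hspa9 (0.36) and Tomm22 (0.31), with a median of 0.12. Of 8 tested regulators of mitochondrial biogenesis 1 was called higher, Gabpb1, a subunit of the GABP complex that binds the ETS core, with 33.1 ± 1.8 RPKM in Axin1 and 27.4 ± 0.6 RPKM in Wt (SD, n = 3 each, adjusted p = 0.0215 in limma). Of 77 tested oxidative phosphorylation subunits 14 were called higher and 2 lower, with a median of 0.099, and of 77 tested rows of cytosolic ribosomal protein genes (76 symbols, Rpl30 having 2 rows, 1 of them called) 23 were called higher and 0 lower in limma, 1 was lower at an unadjusted p under 0.05, voom called 30 higher and 0 lower, and the median was 0.20. The cytosolic family thus had 29.9% of its rows called higher, beside the 29.3% of the mitochondrial family, against 14.4% of all tested genes. The called cytosolic rows were less alike in size. Rpl29 had 11.4 to 69.3 RPKM in Axin1 libraries and 0.221 to 0.273 RPKM in Wt libraries, a log2 fold change of 4.26. Rps18 had 8.50 to 27.1 RPKM in Axin1 libraries and 0.631 to 0.752 RPKM in Wt libraries, a log2 fold change of 3.46. The cause was not tested. Tested cytosolic rows also differed widely in level, in Axin1 libraries from 1.05 RPKM for Rpl12 to 1076 RPKM for Rpl8. Whether reads of this family were shared with pseudogene copies was not tested. After the GC and length correction 8 cytosolic genes were called higher and 1 lower, and 1 oxidative phosphorylation gene higher and 5 lower.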

How the data were processed

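RNA of 6 libraries was measured, 3 a group. Per the labels' protocols, RNA came from TRAP and a TruSeq RNA v2 kit. Bowtie, DESeq and build mm9, all without versions, are named in the submitters' processing notes. No source used here names the read counter. Per gene and library the authors deposited RPKM. That unit is in no header. Transcript lengths implied by the values were at a median of 0.995 of reference lengths for 9393 genes with 1 transcript. The authors also deposited, per the file headers, a mean normalized count for each group, a fold (ratio) and p-values with adjusted p-values. The headers do not name the groups of the means, which were told apart by genes with reads in libraries of one group alone. So read, the fold equalled Wt over Axin1 for 100% of genes. Whole reads were recovered from these columns, within 0.05 reads, for 100% of values of genes with 1 transcript and 28.6% of values of genes with several. Tested members had between 48 and 6948 reads in a library, and 74 of 76 had at least 100 in each. Chi-square per degree of freedom between replicates was 7.28 to 43.5, above sampling noise.

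Group differences were fitted on log2(RPKM + 1) by limma 3.58.1 (R 4.3.3), without covariates, for 12493 table rows, called genes here (7 symbols have several), averaging 1 RPKM or more, with Benjamini-Hochberg adjustment over them (two-sided, threshold 0.05). Fold changes are positive where Axin1 is higher, and the pseudocount of 1 understates changes of low genes. An exact permutation test of 3 against 3 cannot go below 0.1 and was not used. The step was tested on 5 simulations of 12491 genes, with the same spread for every gene (dispersion 0.00359). With no gene changed it made 3.6 calls on average. With 200 changed it found 27.6% of changes of log2 0.25 and 94.4% of log2 0.5, with 16.2 false calls on average. Member fold changes ran from -0.31 to 0.40, so a member that was not called may still have changed. Alternatives were other pseudocounts (0.1 and 10), no filter, a minimum average of 5 RPKM, 2 rescalings, the replicate number as a block, trend and robust variances, voom on recovered reads, a loess correction for GC content and length (span 0.5, 12415 genes) and leaving out each library. Tables and plots were made in Python 3.11.15 (pandas 2.3.3, matplotlib 3.10.9, numpy 2.4.6). The reference (GENCODE and RefSeq on GRCm38) is of another build than mm9 and served for names, lengths, neighbours and RefSeq's own promoter windows.

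The members, gene lists, motifs and tests were chosen with earlier results of these data known. Named members were those called, up to the 12 with the lowest p in each subunit class, the 3 highest, 3 lowest and 3 most changed of each class, the member under the filter, the Mrps18 genes, Mrps30, Mrps36, Mrpl10 and Mrpl12, and of related lists the called genes, at most 3 by lowest p, 34 members in all. Other members were named after their values were seen.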

Additional observations from a re-analysis of the deposited data

How the results depend on the processing

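Of all tested genes, 1800 were called higher and 1046 lower. The GC and length correction left 921 higher. Leaving out each library in turn gave 589 to 1492 higher and 465 to 933 lower. In the large subunit the 16 genes called higher became 8 under the median of ratios, 3 under the GC and length correction and 1 to 12 on leaving out a library, and the 0 called lower became 1 under the GC and length correction. In the small subunit the 6 called higher became 3 under the median of ratios, 2 under the GC and length correction and 1 to 4 on leaving out a library. The 1 called lower became 0 at a pseudocount of 0.1, at a pseudocount of 10 and with no filter, and 0 to 1 on leaving out a library. The large subunit's median of 0.16 became 0.11 at a pseudocount of 10, 0.12 under the median of ratios and 0.041 under the GC and length correction, and 0.14 to 0.20 on leaving out a library. The small subunit's median of 0.11 became 0.0055 under the GC and length correction, and 0.087 to 0.14 on leaving out a library. The cause was not tested. The median of ratios called 1298 genes higher and 1338 lower, and voom on recovered reads 2031 and 1026. Depth limits small changes most in Axin1 replicate 3, with 21077136 reads.

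Replicate numbers were not used to pair the libraries in the fit above. The deviations of same-numbered libraries correlated weakly, at 0.078, 0.127 and 0.059, and those of differently numbered libraries at -0.11 to 0.014. Each library thus correlated best with its own number, and whether the libraries were paired was not tested. With the replicate number as a block, 1591 genes were called higher and 1084 lower, and 11 large and 5 small subunit genes were called higher and 1 small subunit gene lower.

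Some members that were not called changed sign. Under the median of ratios these were Mrpl12 (-0.0094), Mrpl2 (-0.0099), Mrpl28 (-0.030), Mrpl34 (-0.0080), Mrpl27 (-0.0066), Mrpl10 (-0.00056), Mrps16 (-0.032), Mrps26 (-0.034) and Mrps30 (-0.022). Under the upper quartile they were Mrpl12 (-0.00094), Mrpl2 (-0.0015), Mrpl28 (-0.022), Mrps16 (-0.024), Mrps26 (-0.026) and Mrps30 (-0.013). In voom Mrpl1 turned to 0.13. Under the GC and length correction they were Mrpl12 (-0.0039), Mrpl2 (-0.012), Mrpl36 (-0.050), Mrpl49 (-0.028), Mrpl50 (-0.016), Mrpl28 (-0.020), Mrpl43 (-0.046), Mrpl34 (-0.044), Mrpl27 (-0.11), Mrpl10 (-0.027), Mrpl21 (-0.0081), Mrpl30 (-0.11), Mrps33 (-0.057), Mrps14 (-0.013), Mrps36 (-0.036), Mrps16 (-0.088), Mrps21 (-0.12), Mrps18a (-0.034) and Mrps30 (-0.10). On leaving out a library, values ranged from -0.17 to 0.069 for Mrpl1, from -0.0080 to 0.030 for Mrpl28, from -0.016 to 0.13 for Mrpl10, from -0.27 to 0.0069 for Mrps10, from -0.022 to 0.030 for Mrps16, from -0.068 to 0.017 for Mrps28, from -0.044 to 0.047 for Mrps26, from -0.079 to 0.013 for Mrps24 and from -0.039 to 0.055 for Mrps30.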
